A study of Mus musculus with 9 samples.

Results

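Orphan and adhesion G protein-coupled receptors were described across 3 sorted cell populations of mice. Members were the genes whose only symbol in the platform annotation was Gpr followed by digits, or Adgr followed by a letter and a digit, each read from its brightest probe set. This gave 97 of the 19938 genes measured, of which 71 had a Gpr and 26 an Adgr symbol. The populations were T cell zone macrophages of lymph nodes (TZM), CD8a+ dendritic cells (DC) and microglia, the macrophages of the brain, each measured on 3 arrays that the titles call biological replicates. The labels do not say whether these came from separate mice, so p-values measure the spread between these arrays. All mice carried the genotype CX3CR1 gfp+/-, in which a green fluorescent protein (GFP) reporter stands in 1 copy of the fractalkine receptor gene, so no population came from unmodified mice. TZM were sorted as GFP-high, MertK+, CD11b+ and CD169-, microglia as GFP-high, CD11b+ and CD45+, and DC as CD8a+ cells that lacked CD64 and had much CD11c and MHC class II. The labels give the DC a lymph node origin in the sample fields and a splenic one in the sorting protocol. No member was a sorting marker. Age, sex and treatment are not among the labels used here.

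G protein-coupled receptors cross the membrane in a bundle of helices and pass an outside signal to heterotrimeric G proteins, which act on adenylyl cyclases, phospholipases and small GTPases. A Gpr symbol marks a receptor named before its ligand was known, and several have since been tied to lipids, protons or metabolites. Adhesion receptors carry a long extracellular part that binds matrix or other cells, and most are cleaved close to the membrane. In macrophages and DC such receptors are known for guiding migration, for sensing tissue damage and acid, and for contact with neighbouring cells. The symbol also covers a few membrane proteins of the lysosome and Golgi that are not classical receptors.

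Values are log2 levels from robust multi-array averaging (RMA). Levels of different probe sets depend on their probes, so levels are compared between populations within a gene and not between genes. A gene was called different when limma's Benjamini-Hochberg adjusted p was under 0.05 over all genes and the log2 fold change was at least 1 in size. Fold changes are given with the standard error (SE) of that fit, and levels as mean ± SD over the 3 arrays. The levels of defining markers followed the labels but are no independent check, since many of them were used to sort the cells. Mertk, Itgam, Fcgr1, Ptprc, Cd8a, Itgax and H2-Aa belong to sorted proteins, and Cx3cr1 is the gene with the GFP reporter. The means of 6 macrophage markers ran from 9.13 to 9.30 over TZM arrays, from 4.53 to 4.56 over DC arrays and from 10.90 to 10.98 over microglia arrays, those of 7 CD8a+ DC markers from 6.77 to 6.88, from 10.61 to 10.67 and from 5.21 to 5.57, and those of 5 microglia markers from 7.72 to 7.82, from 5.59 to 5.75 and from 10.93 to 11.09. The microglia markers were not alike in TZM, with Ptprc at 10.38, P2ry12 at 9.80 and Tmem119 at 9.18 but Fcrls at 5.05 and Sall1 at 4.48. A lower level in a bulk sorted sample may mean fewer cells with the transcript or less transcript per cell, which cannot be told apart here.

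Most members had low levels. A mean level of 6 or above was reached by 20 members in TZM, 20 in DC and 19 in microglia, which is 20.6%, 20.6% and 19.6% of the 97. Over all genes the shares at that level were 34.7%, 33.7% and 34.3%. In at least 1 population 30 members (30.9%) reached 6, against 39.9% of all genes. Of these 30, 22 had a Gpr symbol and 8 an Adgr symbol. The level was reached in all 3 populations by 11 members, in exactly 2 by 7 and in exactly 1 by 12. Those with 6 or above in DC alone were Gpr141b, Gpr33, Gpr4, Gpr31b, Adgra2 and Adgrl3. In microglia alone they were Gpr84, Gpr165, Gpr160 and Adgrg1, and in TZM alone Adgre4 and Adgrg6. Nearest to the level from above were Gpr89 (highest population mean 6.90), Adgre4 (6.43), Adgra2 (6.30), Adgrl3 (6.27) and Gpr160 (6.14). Nearest from below were Gpr139 (5.89), Gpr180 (5.87), Adgrg3 (5.74), Gpr137 (5.73) and Gpr3 (5.64).

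**Figure D1:**
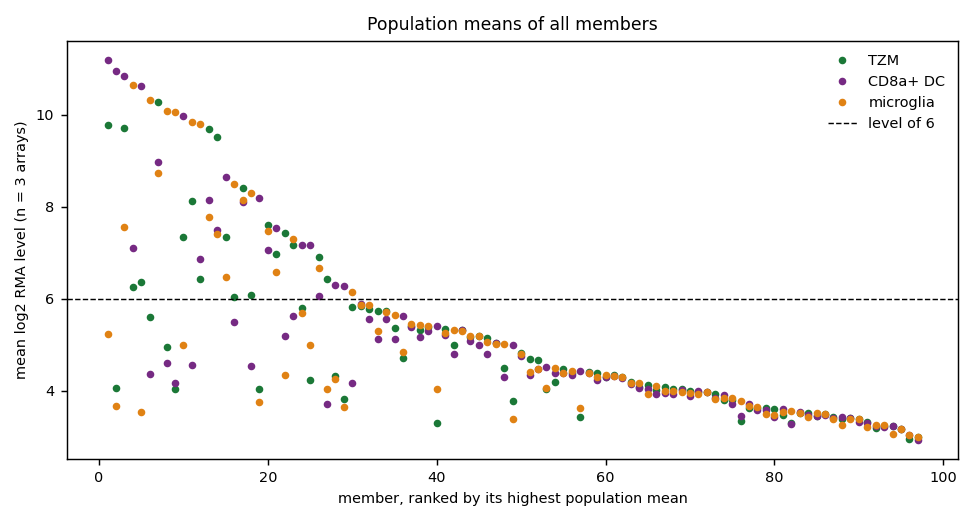
Mean log2 RMA level of each of the 97 members in TZM (green), CD8a+ DC (purple) and microglia (orange), n = 3 arrays each, with members ordered by their highest population mean. Many of the 30 members that reach the dashed line at 6 have separated population means, while most of the others lie close together; the order across members depends on the probes and is not an order of abundance.

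Of the 97 members, 29 (29.9%) were called in at least 1 comparison, against 15.4% of all genes. The called members with no mean at 6 or above were Gpr82, Gpr141 and Adgrf5. Called in all 3 comparisons were Adgre1, Adgre5, Adgrl2, Gpr65, Gpr84, Gpr132 and Gpr171, which is 7.22% of members beside 1.5% of all genes.

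Against DC, TZM had 10 members higher (10.3%, with 4.71% of all genes) and 14 lower (14.4%, with 4.03% of all genes), so 24.7% were called either way beside 8.74% of all genes. Against microglia, TZM had 9 members higher (9.28%, with 4.25% of all genes) and 8 lower (8.25%, with 3.4% of all genes), or 17.5% either way beside 7.65%. Microglia against DC gave 10 higher (10.3%, with 5.15% of all genes) and 13 lower (13.4%, with 6.01% of all genes), or 23.7% either way beside 11.2%. The arrays of the compared populations did not overlap for 39, 32 and 39 members (40.2%, 33% and 40.2%), beside 32.3%, 30.5% and 37.8% of all genes. These comparisons share arrays, so their counts are not independent. The median log2 fold change of the 97 members was 0.03, 0.01 and 0.03 in the 3 comparisons, beside 0.02, 0.01 and 0.01 over all genes. By population, 13 members were called higher in DC than in both others (13.4%, with 2.96% of all genes), 8 in microglia (8.25%, with 2.38%) and 5 in TZM (5.15%, with 2.06%). Called lower than in both others were 5 members in DC (with 2.31% of all genes), 4 in microglia (with 1.85%) and 0 in TZM (with 0.592%).

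**Figure D2:**
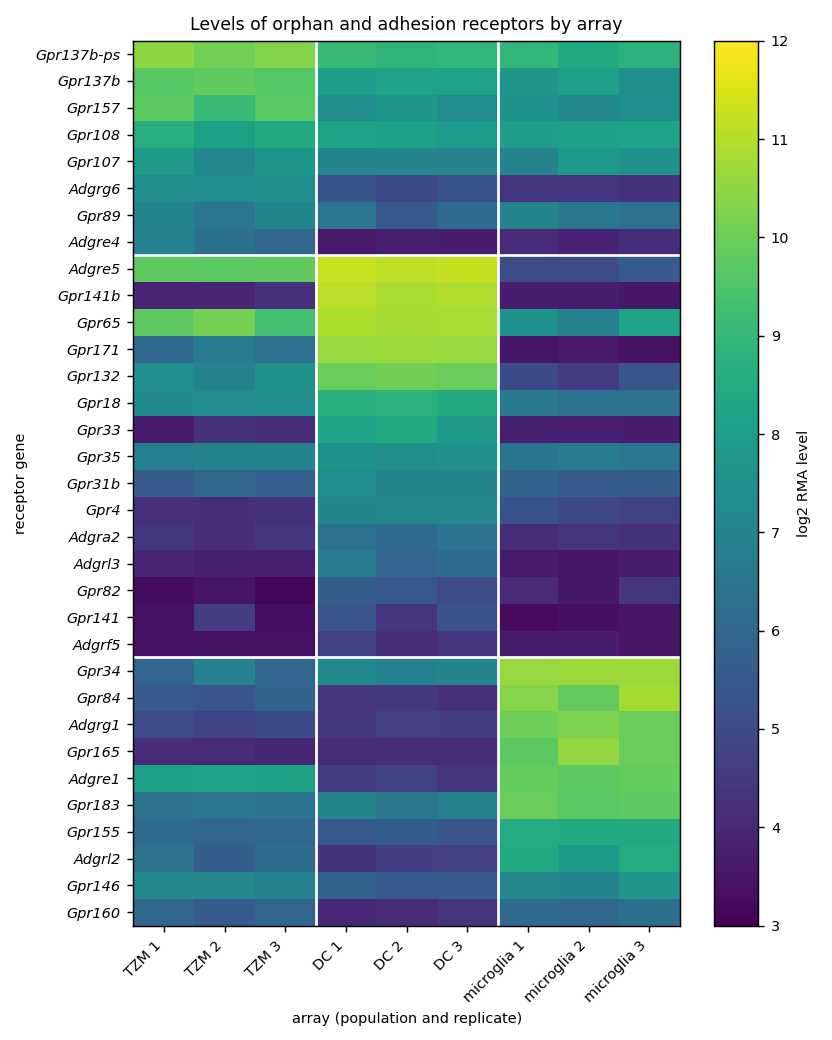
Log2 RMA level (colour) of the 33 members that reached a mean of 6 or were called, in each of the 9 arrays; white lines separate the populations and the genes by the population of their highest mean. The 3 arrays of a population share a colour in nearly every row, and exceptions such as Gpr34 and Gpr141 in TZM replicate 2 are visible.

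The DC group held receptors for acid and lipids and several orphans. Gpr141b, an orphan receptor, was at 11.09, 10.86 and 10.93 in the DC arrays, at 3.97, 3.97 and 4.29 in TZM and at 3.68, 3.71 and 3.58 in microglia. Its DC arrays lay far above all others, with log2 fold changes of -6.88 (SE 0.10, adjusted p = 7.5e-09) for TZM and -7.30 (SE 0.10, adjusted p = 2.0e-09) for microglia against DC. The neighbouring paralogue Gpr141 was at 5.34, 4.40 and 5.23 in DC, at 3.42, 4.58 and 3.34 in TZM and at 3.28, 3.38 and 3.49 in microglia. It was lower in microglia than in DC (-1.61, SE 0.35, adjusted p = 0.0095), whereas TZM replicate 2 overlapped the DC arrays. The Gpr141 call of TZM against DC (-1.21, adjusted p = 0.043) was lost in 7 of 9 fits that left out 1 array (adjusted p = 0.066 to 0.15) and with the replicate number as a block (adjusted p = 0.096). Probes of such paralogues may bind each other's transcripts, which was not tested. Gpr33, an orphan of the chemoattractant receptor kind, was at 8.21, 8.50 and 7.88 in DC and between 3.71 and 4.30 in every other array. It differed from DC by -4.15 (SE 0.18, adjusted p = 9.0e-07) in TZM and by -4.44 (SE 0.18, adjusted p = 4.0e-07) in microglia.

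Interferon regulatory factors are known regulators of this DC type, so the promoters of members at 6 or above were searched for the interferon response core, GAAA repeated after any 2 bases, and for a composite of an Ets and an interferon regulatory factor site, GGAA followed after any 2 bases by GAAA, on both strands of the 250 bases before the start. The RefSeq table (GRCm38.p6) held windows for 23 of the 30 members, 9 of them highest in DC, 8 in microglia and 6 in TZM. The first motif was found for Gpr141b, Gpr18 and Adgrl3 and the second for Gpr33, all highest in DC. These letters occur in 2.98% and 2.3% of all 32851 windows of the table. Windows are printed 5′ to 3′ up to the base before the start, with the matched motif in capitals, since these 4 genes carry a match and are called highest in DC. The other 5 members highest in DC with a window (Gpr132, Gpr31b, Gpr35, Gpr4 and Gpr65) held neither motif. Gpr165, called highest in microglia, is shown as a window without a match.
Gpr141b (chr13:19732952-19733201, minus strand): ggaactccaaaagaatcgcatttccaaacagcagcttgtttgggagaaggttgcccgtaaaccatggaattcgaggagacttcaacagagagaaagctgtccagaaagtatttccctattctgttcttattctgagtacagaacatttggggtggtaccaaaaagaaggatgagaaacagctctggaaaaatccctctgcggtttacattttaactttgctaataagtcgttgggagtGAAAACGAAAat
Gpr33 (chr12:52028064-52028313, minus strand): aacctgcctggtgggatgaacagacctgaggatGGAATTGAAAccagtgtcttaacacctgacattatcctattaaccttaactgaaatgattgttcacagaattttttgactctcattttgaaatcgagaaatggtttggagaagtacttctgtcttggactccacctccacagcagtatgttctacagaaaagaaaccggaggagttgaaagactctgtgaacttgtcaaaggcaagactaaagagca
Gpr18 (chr14:121915889-121916138, minus strand): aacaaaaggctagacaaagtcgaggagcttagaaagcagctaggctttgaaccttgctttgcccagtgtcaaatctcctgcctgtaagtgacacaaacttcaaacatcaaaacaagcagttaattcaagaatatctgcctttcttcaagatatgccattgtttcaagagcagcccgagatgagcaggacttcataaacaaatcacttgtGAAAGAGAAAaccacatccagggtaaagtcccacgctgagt
Adgrl3 (chr5:81020502-81020751, plus strand): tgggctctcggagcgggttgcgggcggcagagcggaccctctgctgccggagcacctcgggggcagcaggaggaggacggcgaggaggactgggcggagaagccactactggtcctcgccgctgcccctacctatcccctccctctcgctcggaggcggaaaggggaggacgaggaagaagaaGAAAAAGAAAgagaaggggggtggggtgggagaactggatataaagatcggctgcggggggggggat
Gpr165 (chrX:96713218-96713467, plus strand): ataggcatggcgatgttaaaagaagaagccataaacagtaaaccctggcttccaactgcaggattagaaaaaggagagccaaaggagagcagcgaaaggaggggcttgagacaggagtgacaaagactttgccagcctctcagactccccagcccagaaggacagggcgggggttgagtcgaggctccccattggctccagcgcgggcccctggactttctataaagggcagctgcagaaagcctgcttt
The match in Gpr141b began 12 bases before the start, that in Gpr18 41 bases before it, that in Adgrl3 67 and that in Gpr33 217. A match describes letters only, and the motifs were chosen with the levels known. Searched in the same windows, the PU.1 core GAGGAA was found for 6 of the 23 members (in 23.3% of all windows). These were Adgrl3, Gpr31b, Gpr35 and Gpr65, highest in DC, Gpr108, highest in TZM, and Gpr146, highest in microglia. The AP-1 site TGANTCA was found for 2 (6.75%), Adgrg1, highest in microglia, and Gpr35. The MEF2 site, CTA and TAG with any 4 bases between them, was found for 2 (3.2%), Adgre4, highest in TZM, and Gpr146. The match of Adgrl3 lies within a longer run of only A and G. Adgrl3 has 3 windows, of which 1 holds the match, so counts of genes and shares of windows are different measures.

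Proton-sensing receptors, which couple acidic surroundings to G proteins, were all at their highest mean in DC. Of the 3 measured, 3 were lower in TZM than in DC (4.03% of all genes) and 3 lower in microglia than in DC (6.01% of all genes). Gpr65 was at 10.90, 10.81 and 10.84 in DC, 9.75, 10.12 and 9.30 in TZM and 7.59, 6.92 and 8.17 in microglia. Its arrays did not overlap between any populations, with microglia the lowest and the most variable. The TZM to microglia difference was 2.17 (SE 0.30, adjusted p = 0.0012). The Gpr65 difference of TZM from DC, -1.13 (SE 0.30, adjusted p = 0.031), was no longer called in 6 of 9 fits without 1 array (-0.92 to -1.15, adjusted p = 0.053 to 0.1) nor under the replicate block (-1.13, adjusted p = 0.072). Gpr132, linked to lysophospholipid and acid responses, was at 9.96, 10.04 and 9.93 in DC, 7.47, 6.94 and 7.61 in TZM and 5.02, 4.55 and 5.40 in microglia. All steps in this order were called, with TZM below DC by -2.64 (SE 0.23, adjusted p = 5.9e-05) and above microglia by 2.35 (SE 0.23, adjusted p = 1.4e-04). Gpr4, the remaining member of this group, was at 7.17 ± 0.06 (SD, n = 3) in DC, 4.24 ± 0.06 in TZM and 4.99 ± 0.25 in microglia. Of its differences from DC, -2.93 in TZM and -2.18 in microglia were called.

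Receptors related to the purinergic receptor P2Y12 were split between DC and microglia. Gpr171, an orphan of leukocytes in this branch, was at 10.60, 10.66 and 10.60 in DC, 6.04, 6.66 and 6.37 in TZM and 3.56, 3.64 and 3.39 in microglia. It fell into 3 separate levels, with TZM lower than DC by -4.26 (SE 0.14, adjusted p = 2.3e-07) and higher than microglia by 2.83 (SE 0.14, adjusted p = 2.8e-06). On chromosome 3 of the RefSeq table (GRCm38.p6) it neighbours P2ry14, P2ry13 and P2ry12. P2ry14 was at 10.20 ± 0.02 (SD, n = 3) in DC, 9.33 ± 0.15 in TZM and 4.25 ± 0.16 in microglia, and P2ry13 at 5.91 ± 0.41, 11.52 ± 0.23 and 12.17 ± 0.04, whereas P2ry12 was at 4.82 ± 0.07 in DC, 9.80 ± 0.07 in TZM and 11.48 ± 0.03 in microglia.

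Gpr34, a receptor of lysophosphatidylserine known from microglia, was at 10.60, 10.67 and 10.69 in microglia, 7.27, 6.97 and 7.09 in DC and 5.94, 6.91 and 5.95 in TZM. Microglia stood above both others, by 3.54 over DC (SE 0.24, adjusted p = 8.6e-06), and TZM were below microglia (-4.39, SE 0.24, adjusted p = 4.2e-06). The Gpr34 difference between TZM and DC was -0.85 (SE 0.24, adjusted p = 0.037), under the fold minimum, and -1.17 (adjusted p = 7.2e-05) without TZM replicate 2. That array also had the highest S100a8 and S100a9, genes of neutrophils and monocytes, at 9.28 and 9.39 beside 5.89 and 6.21 in replicate 1 and 7.32 and 7.89 in replicate 3. The means of the 5 measured markers of these cells ran from 5.17 to 6.59 over TZM arrays, 4.69 to 4.78 over DC arrays and 4.19 to 4.23 over microglia arrays. In TZM the neutrophil marker Ly6g was at 3.13, 3.13 and 3.24, Mpo at 4.29, 4.44 and 4.22, and Ccr2 at 6.32, 6.72 and 6.68. Ly6g, Mpo and Ccr2 were not called in TZM against DC, and of them only Ccr2 was called over microglia (1.03). The part of such cells in the Gpr34 and Gpr141 values was not tested. Gpr82, the neighbour of Gpr34 on chromosome X, had its highest mean in DC, with 5.40 ± 0.29 in DC, 4.03 ± 0.42 in microglia and 3.30 ± 0.20 in TZM. It was called lower than in DC in TZM (-2.10, adjusted p = 2.2e-04) and in microglia (-1.37, adjusted p = 0.002). Gpr174, the fourth measured gene of this branch, was at 3.42 or below in every array.

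**Figure D3:**
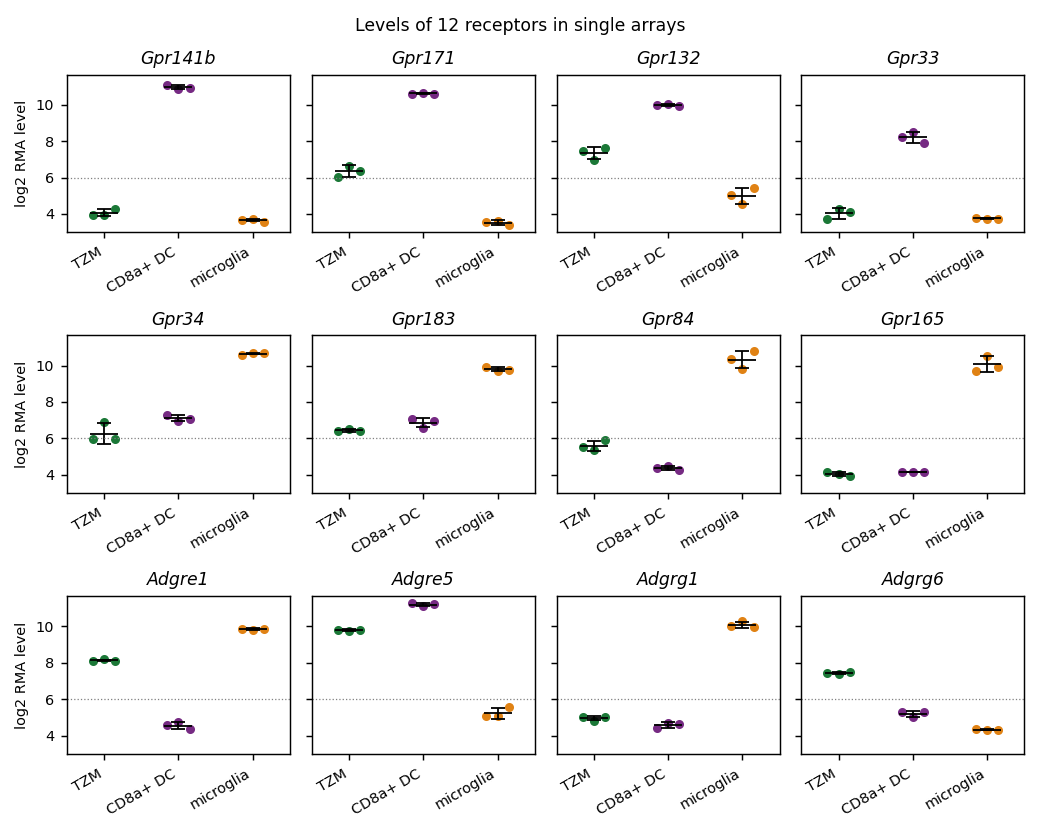
Log2 RMA level of 12 receptors in each array (points) with mean and SD (black), by population; the dotted line marks 6. The upper row is highest in DC, the middle row in microglia, and the lower row shows 4 adhesion receptors, of which Adgre1 and Adgrg1 are highest in microglia, Adgre5 in DC and Adgrg6 in TZM; TZM replicate 2 is apart from the other TZM arrays for Gpr34.

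Among receptors for oxysterols, other lipids and metabolites, Gpr84 and Gpr183 were highest in microglia, and Gpr18 and Gpr31b in DC. Gpr84, a sensor of medium-chain fatty acids induced in activated myeloid cells, was at 10.36, 9.83 and 10.79 in microglia, 5.53, 5.37 and 5.90 in TZM and 4.38, 4.47 and 4.26 in DC. The microglia arrays lay well above the rest, and TZM also lay above DC by 1.23 (SE 0.23, adjusted p = 0.0052), at levels below 6. Gpr183, or EBI2, which guides immune cells along gradients of dihydroxylated cholesterol, was at 9.94, 9.71 and 9.78 in microglia, 7.08, 6.58 and 6.94 in DC and 6.38, 6.53 and 6.43 in TZM. TZM were below microglia by -3.37 (SE 0.13, adjusted p = 4.9e-07), and TZM and DC differed by -0.42 (SE 0.13, adjusted p = 0.047), under the fold minimum. Gpr18, its neighbour on chromosome 14 and a proposed receptor for lipid mediators of resolution, had its highest mean in DC and its lowest in microglia. It was at 8.66 ± 0.15 in DC, 7.34 ± 0.08 in TZM and 6.48 ± 0.14 in microglia. The Gpr18 difference from DC was -1.33 (SE 0.10, adjusted p = 2.3e-05) in TZM and -2.18 (SE 0.10, adjusted p = 8.3e-07) in microglia.

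Gpr31b, a metabolite receptor, was at 7.18 ± 0.16 in DC, 5.79 ± 0.21 in TZM and 5.70 ± 0.16 in microglia, and its second probe set gave 7.08, 5.70 and 5.62. Gpr35, proposed to respond to the tryptophan product kynurenic acid, passed 6 in every array but varied little, with 7.54 ± 0.09 in DC, 6.97 ± 0.07 in TZM and 6.59 ± 0.11 in microglia. Its adjusted p-values were 0.001, 0.0097 and 3.3e-05 in the 3 comparisons, but no difference reached the fold minimum. Without microglia replicate 2 the Gpr35 difference of microglia from DC was -1.02 (adjusted p = 6.7e-05) and thus called. Gpr55 and Gpr119 stayed below 5 in every array.

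Orphans outside these groups were also high in microglia. Gpr165, an orphan receptor, was at 9.72, 10.55 and 9.94 in microglia, 4.16, 4.06 and 3.94 in TZM and 4.18, 4.16 and 4.13 in DC. TZM and DC were not called apart (log2 fold change -0.11, SE 0.18, adjusted p = 0.78), and TZM were below microglia by -6.02 (SE 0.18, adjusted p = 1.4e-07). Among markers of the choroid plexus, Ttr moved within the microglia group, at 12.15, 5.48 and 11.83. Folr1, Kl and Clic6 were at 5.25 ± 0.20, 4.34 ± 0.31 and 3.84 ± 0.40 in microglia and were not called in any comparison. In microglia replicate 2, which had the low Ttr, Gpr165 was at 10.55, Adgrg1 at 10.27, Gpr84 at 9.83, Gpr34 at 10.67 and Gpr183 at 9.71, each above every TZM and DC array of that gene. Among microglia arrays, that replicate had the lowest Gpr84 and Gpr183 and the highest Gpr165 and Adgrg1. Its Ttr was still above every TZM and DC array. The part of choroid plexus cells in these levels was not tested.

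Gpr155, a lysosomal protein that senses cholesterol, was at 8.49 ± 0.04 in microglia, 6.03 ± 0.08 in TZM and at 5.47, 5.67 and 5.36 in the DC arrays. The difference of TZM from microglia was -2.46 (SE 0.09, adjusted p = 3.5e-07). Gpr146 and Gpr160 were called above DC in both macrophage populations. Gpr146 was at 7.18 ± 0.19 in TZM, 7.30 ± 0.35 in microglia and 5.63 ± 0.14 in DC. Gpr160 was at 5.83 ± 0.22, 6.14 ± 0.17 and 4.16 ± 0.16. Between TZM and microglia the log2 fold changes were -0.12 (SE 0.17, adjusted p = 0.74) for Gpr146 and -0.30 (SE 0.14, adjusted p = 0.19) for Gpr160. Above DC they were by 1.55 and 1.67 in TZM and by 1.67 and 1.97 in microglia.

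Called higher in TZM than in both others were Gpr137b, Gpr137b-ps, Gpr157, Adgre4 and Adgrg6. Of 11 measured proteins with a Gpr symbol outside the classical receptor classes, 3 were higher in TZM than in DC and 0 lower (all genes 4.71% and 4.03%), and 3 were higher and 1, Gpr155, lower than in microglia (all genes 4.25% and 3.4%). Of these 3, Gpr137b and Gpr137b-ps are near-identical copies. Gpr137b, a lysosomal membrane protein tied to nutrient signalling, was at 9.65, 9.79 and 9.62 in TZM, 8.03, 8.19 and 8.21 in DC and 7.69, 8.15 and 7.49 in microglia. Its TZM arrays were apart from all others, by 1.55 over DC (SE 0.15, adjusted p = 1.4e-04) and 1.91 over microglia (SE 0.15, adjusted p = 4.5e-05). Gpr137b-ps, annotated as a pseudogene copy, followed with 10.28 ± 0.19, 8.97 ± 0.12 and 8.73 ± 0.23, and signal of the pair may be shared between near-identical copies. Gpr157, which couples to G proteins in cilia, was at 9.75, 9.09 and 9.70 in TZM, 7.40, 7.72 and 7.35 in DC and 7.58, 7.22 and 7.47 in microglia. Its excess in TZM was 2.02 over DC (SE 0.19, adjusted p = 9.9e-05) and 2.09 over microglia (SE 0.19, adjusted p = 9.5e-05). The Golgi proteins Gpr107, Gpr108 and Gpr89 were at 6 or above in every population mean and were not called in any comparison. For Gpr89, TZM exceeded DC by 0.84 (adjusted p = 0.071), which was called without TZM replicate 2 (1.02, adjusted p = 0.045) or without DC replicate 1 (1.07, adjusted p = 0.036).

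The adhesion receptors of the E family, which are leukocyte proteins, each had a different order. Adgre1, the F4/80 antigen of mouse macrophages, was at 9.88, 9.78 and 9.86 in microglia, 8.11, 8.19 and 8.11 in TZM and 4.59, 4.74 and 4.35 in DC. TZM were thus between the others, above DC by 3.58 (SE 0.10, adjusted p = 7.9e-08) and below microglia by -1.70 (SE 0.10, adjusted p = 5.5e-06). Adgre5, or CD97, a leukocyte receptor that binds CD55, was at 11.26, 11.13 and 11.21 in DC, 9.81, 9.74 and 9.81 in TZM and 5.07, 5.06 and 5.57 in microglia. Here the arrays fell into separate levels, with TZM above microglia by 4.55 (SE 0.13, adjusted p = 1.1e-07) and below DC by -1.41 (SE 0.13, adjusted p = 8.8e-05). Adgre4 was at 6.96, 6.28 and 6.04 in TZM, 3.63, 3.77 and 3.71 in DC and 4.09, 3.89 and 4.18 in microglia. All its TZM arrays passed 6, with a wider spread than in the other groups, and TZM exceeded DC by 2.72 (SE 0.21, adjusted p = 2.8e-05) and microglia by 2.38 (SE 0.21, adjusted p = 7.8e-05).

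In the G family, Adgrg1, also named GPR56 and known as a microglial receptor that takes part in synapse refinement, was at 10.03, 10.27 and 9.96 in microglia. In TZM it was at 5.05, 4.82 and 5.02 and in DC at 4.43, 4.71 and 4.64. The difference of TZM from microglia was -5.13 (SE 0.11, adjusted p = 3.2e-08), and that of TZM from DC was 0.36 (SE 0.11, adjusted p = 0.052). Its neighbour on chromosome 8, Adgrg3, a granulocyte receptor, stayed between 4.85 and 5.97 in all arrays and was not called. Adgrg6, or GPR126, known for its need in peripheral myelination, was highest in TZM. It was at 7.44, 7.38 and 7.47 in TZM, 5.28, 5.02 and 5.28 in DC and 4.37, 4.34 and 4.30 in microglia. TZM exceeded DC by 2.24 (SE 0.08, adjusted p = 3.0e-07) and microglia by 3.09 (SE 0.08, adjusted p = 6.1e-08), and no arrays of different populations overlapped.

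Latrophilins, which bind teneurins on other cells, differed among themselves. Adgrl2 was at 8.49, 7.92 and 8.52 in microglia, 6.35, 5.73 and 6.15 in TZM and 4.33, 4.63 and 4.69 in DC. TZM lay between the others, above DC by 1.53 (SE 0.21, adjusted p = 8.2e-04) and below microglia by -2.23 (SE 0.21, adjusted p = 1.0e-04). It was read by 8 probe sets, which differed widely. The mean of microglia was above that of both others in 6 of the 7 probe sets not used, and the difference between microglia and DC ran from -0.03 to 3.19 over those 7. With the mean of the 8 probe sets in place of the brightest, the Adgrl2 difference of TZM from DC was 0.61 (adjusted p = 0.015) and no longer called. Adgrl3 was at 6.76, 5.92 and 6.13 in DC, 3.83 ± 0.11 in TZM and 3.64 ± 0.08 in microglia, and it was called lower than in DC in both macrophage populations (-2.44 and -2.63). Adgra2, or GPR124, a Wnt co-receptor of brain vessels, followed the same order at 6.30 ± 0.20, 4.32 ± 0.14 and 4.26 ± 0.11, with differences from DC of -1.98 (adjusted p = 5.7e-06) in TZM and -2.04 (adjusted p = 3.5e-06) in microglia.

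Adgrb1, or BAI1, a receptor for phosphatidylserine on dying cells, was at 5.20, 5.41 and 5.35 in TZM, 5.28, 5.28 and 5.42 in DC and 5.28, 5.22 and 5.39 in microglia. Its arrays overlapped in all comparisons, and at this level the array does not separate a low signal from background. Adgrl4 and Adgrf5, receptors of vessel walls, were at 3.61 or below and at 4.77 or below in every array. Adgrf5 was nevertheless called lower in TZM than in DC (-1.02, SE 0.14, adjusted p = 8.7e-04), a call lost without DC replicate 1 (-0.85) and with array weights (-0.99).

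**Figure D4:**
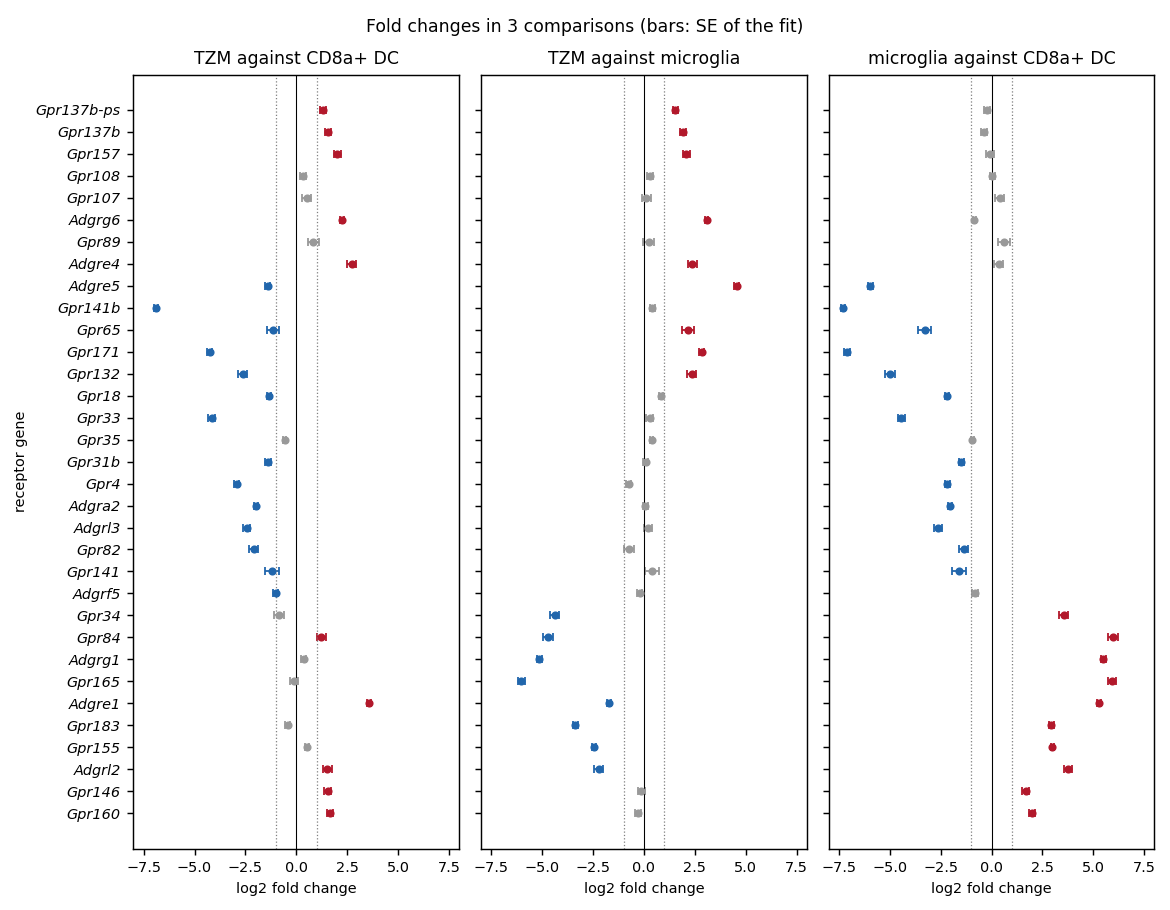
Log2 fold change (points) with its SE (bars) for the 33 members that reached a mean of 6 or were called, in the 3 comparisons; red is called higher and blue lower in the first-named population, grey is not called, and dotted lines mark 1 and -1. Of the 17 genes called between TZM and microglia, 8 are in the lower block and 9 in the others, with Gpr141b at -6.88 against DC and Gpr165 at -6.02 against microglia.

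The remaining 64 members were neither at 6 nor called, with levels between 2.86 and 6.17 over all arrays. Their population means spanned 0.11 at the median and 0.90 at most. Under an unadjusted p of 0.05 were 6 of them for TZM against DC, 7 for TZM against microglia and 10 for microglia against DC, and 2, 3 and 5 had a limma adjusted p under 0.05 without reaching the fold minimum. They included the list of peptide and neuronal class A orphans, of which 0 of 30 measured genes reached 6 and 0 were called in any comparison (2, 3 and 2 at an unadjusted p under 0.05). Over all genes, 39.9% reached 6 in at least 1 population and 15.4% were called in at least 1 comparison. Among the listed orphans were Gpr17 and Gpr37, receptors of the oligodendrocyte lineage, and Gpr37l1 of astrocytes, at 4.56 or below in all arrays, microglia included. The constitutively active receptors Gpr3, Gpr6 and Gpr12 were not called either, and Gpr3 was at 5.87, 5.29 and 5.75 in microglia.

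Markers of other cells that may carry such receptors were also read. The means of 6 T cell markers ran from 5.86 to 6.20 over TZM arrays, 5.01 to 5.14 over DC arrays and 4.74 to 4.94 over microglia arrays, with Cd4 at 10.59 to 11.06 in TZM and Cd3g at 3.94, 4.37 and 5.02. Those of 5 B cell markers ran from 5.51 to 5.57, from 5.14 to 5.21 and from 4.58 to 4.82, those of 6 endothelial markers from 4.94 to 5.03, from 4.62 to 4.70 and from 4.64 to 4.66, and those of 5 neuronal markers were at 4.04 or below in every array. Single markers were called higher in TZM within these lists. Of the T cell list, Cd4 was called over DC (4.07) and microglia (5.51), and Cd3d and Cd3g over microglia only (1.20 and 1.15). Il7r was called lower in TZM than in microglia (-1.55), and Cd3e and Themis were not called. The endothelial Cdh5 had a mean of 7.65 in TZM and was called over DC (5.38) by 2.28 and over microglia (5.24) by 2.42. The other endothelial markers were not called in TZM against DC or microglia. Against DC, Pecam1 was at -0.17, Cldn5 at -0.06, Emcn at -0.13, Kdr at 0.05 and Tek at 0.09. The B cell gene Cd79b was at 9.27 in TZM and called over DC by 2.65 but not over microglia (1.43, adjusted p = 0.055). Cd79a was called over microglia (1.11) but not over DC (0.79, adjusted p = 0.0088). Ms4a1 was lower than in DC at -2.29 and not called against microglia (0.79). Pax5 (0.37 and 0.59) and Cr2 (0.33 and 0.44) were not called in either comparison. The means of 4 NK cell markers ran from 4.15 to 4.69 over TZM arrays and were at 3.63 or below over DC and microglia arrays. Of these markers, Gzma was called higher in TZM by 2.53 over DC and 2.64 over microglia. Ncr1 (0.64 and 0.93), Klrb1c (0.37 and 0.28) and Eomes (0.05 and 0.25) were not called in either comparison. Gpr171, Gpr18, Gpr183 and Gpr132 are also known from lymphocytes, and the part of such cells in their levels was not tested.

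Of 71 measured genes from the lists that pass on or end receptor signals or make or degrade 2 ligands, 17 were called in at least 1 comparison, beside 15.4% of all genes. Shares of all genes for each comparison are 4.71% higher and 4.03% lower for TZM against DC, 4.25% and 3.4% for TZM against microglia, and 5.15% and 6.01% for microglia against DC. Of 12 measured alpha subunits of G proteins, 1 was higher in TZM than in DC and 0 lower, and 1 was lower than in microglia. Gna12 was at 8.70 ± 0.32 in TZM and 8.80 ± 0.15 in microglia against 6.51 ± 0.30 in DC (log2 fold change of TZM against DC 2.19, SE 0.19, adjusted p = 6.2e-05). Gna15, a promiscuous subunit of blood cells, was at 8.11 ± 0.19 in microglia, 6.69 ± 0.29 in TZM and 5.87 ± 0.27 in DC, and TZM were below microglia by -1.42 (adjusted p = 7.0e-04). Of 17 beta and gamma subunits, 2 were higher and 2 lower in TZM than in DC, and 2 higher and 1 lower than in microglia, with 1 higher and 1 lower for microglia against DC. Gngt2 was higher in TZM by 2.47 over DC and 1.01 over microglia, Gng12 by 1.11 and 1.09, and Gng10 was lower at -1.24 and -1.59. Gnb4 was at 6.65 ± 0.07 in DC, 4.81 ± 0.03 in TZM and 4.23 ± 0.15 in microglia.

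RGS proteins, which switch G proteins off, were called in 1 of 18 cases for TZM against DC and in 1 for TZM against microglia, all lower, and 2 (Rgs18 and Rgs3) were lower in microglia than in DC. Rgs18 was at 6.18 ± 0.25 in DC, 3.35 ± 0.16 in TZM and 3.31 ± 0.08 in microglia, and Rgs2 was lower in TZM than in microglia by -1.24 (SE 0.08, adjusted p = 9.9e-06). Of 7 receptor kinases and arrestins, 0 were called for TZM against DC (4 at an unadjusted p under 0.05). In that comparison Arrb2 (0.52, adjusted p = 0.0015), Grk3 (-0.78, adjusted p = 0.0084) and Grk5 (-0.95, adjusted p = 0.0095) missed only the fold minimum. Grk3 was higher in TZM than in microglia by 1.40 (adjusted p = 3.6e-04). For microglia against DC the arrestin gene Arrb2 was called higher, at 9.57 ± 0.04 in microglia and 8.08 ± 0.11 in DC, and Grk3 and Grk5 lower at -2.17 and -1.85. Of 10 adenylyl cyclases, Adcy3 was higher (1.34) and Adcy6 lower (-1.60) in TZM than in DC, and 0 were called for TZM against microglia (5 at an unadjusted p under 0.05). Against microglia, Adcy3 was at 0.96 (adjusted p = 0.0012) and missed only the fold minimum. The lists' median log2 fold changes lay between -0.12 and 0.13 for the alpha subunits, beta and gamma subunits, RGS proteins, kinases and arrestins, and cyclases, beside 0.02, 0.01 and 0.01 over all genes.

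Enzymes of 2 ligands were also listed. For the oxysterol of Gpr183, Ch25h and Cyp7b1 were at 3.74 ± 0.16 or below and 3.28 ± 0.04 or below in the population means, and Hsd3b7 was between 5.71 and 5.87, with none of them called. Cyp27a1, a sterol hydroxylase, was at 8.96 ± 0.06 in DC and lower in TZM at 6.88 ± 0.31 (-2.08, SE 0.20, adjusted p = 1.3e-04). For lysophosphatidylserine, the lipase Abhd12, which degrades it, was at 10.72 ± 0.18 in microglia, 9.97 ± 0.09 in TZM and 7.84 ± 0.13 in DC. Abhd12 was higher in TZM than in DC by 2.14 (SE 0.11, adjusted p = 2.1e-06), while Abhd16a, which makes the lipid, was at 6.48 ± 0.19 in TZM, at 6.51, 6.47 and 6.51 in the DC arrays and at 6.65 ± 0.26 in microglia, and was not called.

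**Figure D5:**
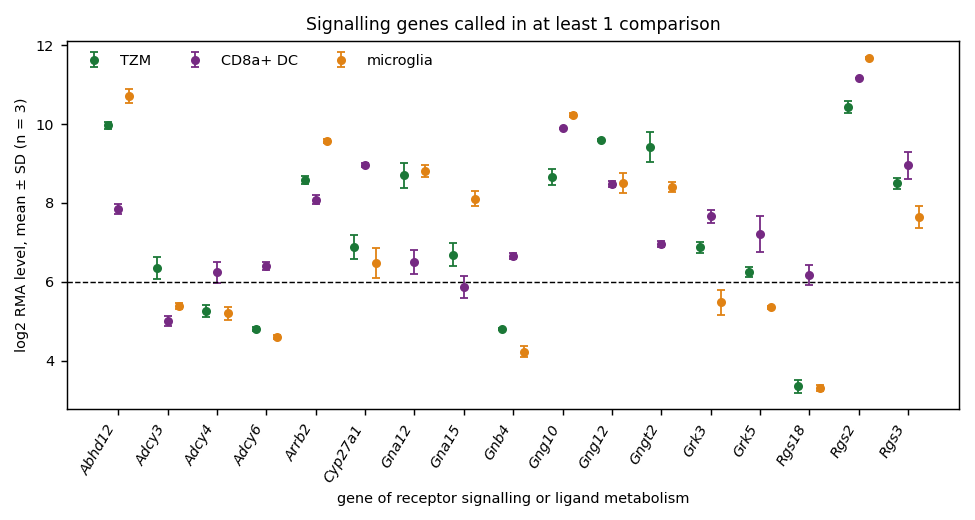
Mean log2 RMA level with SD (n = 3) of the 17 of 71 listed signalling and ligand genes that were called in at least 1 comparison, in TZM (green), CD8a+ DC (purple) and microglia (orange); the dashed line marks 6. Gna12 and Abhd12 are higher in both macrophage populations than in DC, and Gnb4, Rgs18 and Cyp27a1 are highest in DC.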

How the data were processed

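RNA of the 9 sorted samples was measured on Affymetrix mouse gene arrays, 3 per population. The authors deposited log2 expression levels. The submitters' processing notes name Affymetrix Expression Console (1.3.1) and RMA, a method that corrects background, normalizes arrays and summarises probes. The genome build of the array design is not given in the sources used here. The table held 35556 probe sets with values from 2.04 to 13.6. In the platform annotation 21789 probe sets had 1 symbol, 1621 had several and 12146 had no symbol. The brightest probe set was kept for each gene, leaving 19938 genes with array medians from 4.90 to 5.02. The 97 members had 105 probe sets, and all 97 matched RefSeq (GRCm38.p6) by Entrez identifier. No detection call was used, so a low level may be background, and a fold change against it is too small. The number of arrays limits the precision.

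Group differences were estimated by the functions lmFit and eBayes of limma 3.58.1 (R 4.3.3) on all 9 arrays, with group as the only term, over all genes and checked on simulated data. Named were members with a mean of 6 or above or called in a comparison, the 5 on either side of 6, and up to 4 called genes per pathway list and comparison. The other members were counted and some named as examples after their values were seen. Members and lists were chosen with earlier results of these data known. Same-numbered arrays did not deviate together (correlations from -0.14 to 0.13), so the number was not used as a pairing. Alternatives were no minimum fold change, quantile normalization, a filter that asked for 6 or above in at least 3 arrays, centring on the median, array weights, averaged probe sets, all probe sets tested singly, fits of only the compared groups, eBayes with trend and robust options, the replicate number as a block, updated symbols, levels of 5.5 and 6.5 or 6 in each array, and each array left out.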

Additional observations from a re-analysis of the deposited data

How the results depend on the processing

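The counts of called members and of members at 6 or above stayed within 1.5 times their reported values under every alternative run. Leaving out 1 array gave 11 to 15 members lower in TZM than in DC and 10 to 11 higher, and for TZM against microglia 9 higher and 8 lower in each case. Over the other alternatives the members at 6 or above numbered 14 to 27 in TZM, 17 to 26 in DC and 17 to 24 in microglia, with the ends set by levels of 6.5 and 5.5. The level filter kept 29 members. Of 1866 values of single members under an alternative, 1830 kept their side of the threshold, 21 lost a call and 15 gained one. Among values called in the main fit or the alternative, 0 reversed direction. A change of sign in values not called in either was not counted. Of the 15 gained, 11 came with no minimum fold change. The lost calls concerned Gpr141, Gpr65, Adgrf5 and Adgrl2 between TZM and DC. With the replicate block the Gpr141 and Gpr65 calls were lost (adjusted p = 0.096 and 0.072), and no other call of a member changed. Median centring, quantile normalization and trended and robust eBayes changed no call among 99 member values each. Levels near the low end carry little signal over background, which limits Gpr82, Gpr141 and Adgrf5.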

Other observations

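Many dim members had deposited values that repeated exactly between arrays. Of the 64 members neither called nor at 6, 31 (48.4%) had the same value to the last digit in at least 3 of the 9 arrays, against 0 of the 33 others and 30.2% of all genes. The 64 and 33 were split by level and calls, and all genes include brighter ones, so these shares are not of like sets.

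Members that neighbour each other on a chromosome are given here with the population of their highest mean. Of 8 pairs of neighbouring members less than 200 kb apart, Gpr141b and Gpr141 shared it, and the others differed in it, among them Gpr18 and Gpr183, Gpr34 and Gpr82, and Adgrg1 and Adgrg3. Adgrf1, Adgrf2, Adgrf4, Adgrg3, Adgrl1 and Gpr108 of these pairs were not called in any comparison. For pairs that hold them the count therefore shows no difference in order. Adgre5 was highest in DC at 11.20, while its neighbour Adgrl1 was at 5.33 ± 0.07 in microglia and 4.79 ± 0.23 in DC.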
